A study of Mus musculus with 4 samples.

Results

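Red blood cell genes were followed here in whole lungs of mouse embryos: 33 genes out of the 52636 measured, chosen by name from what is known of red cells, with earlier results of these data known. They comprise 7 globins, 6 genes of heme synthesis and iron supply, 9 of the red cell membrane and surface, 7 erythroid transcription factors and receptors, and 4 other late red cell genes. All 33 were found and all passed the filter on low values, a mean of at least 10 normalized counts over the 4 libraries. The lungs were total lung of C57BL/6 embryos at embryonic day 14.5, sequenced as RNA from 2 wild type samples (Control 1 and 2) and 2 samples carrying a conditional knockout of Yap (Yap CKO 1 and 2). The series title places the deletion in the epithelium, and the labels do not give the Cre driver, the deleted exons, whether animals were pooled, or whether the samples were separate embryos. P-values therefore measure only the spread between these samples. Yap is the transcriptional coactivator restrained by the Hippo pathway.

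Red cells of the embryo come in waves. Primitive erythroid cells leave the yolk sac, circulate with their nuclei and carry embryonic globins, namely zeta (Hba-x) paired with epsilon-y (Hbb-y) and beta-h1 (Hbb-bh1). Definitive red cells are then made in the fetal liver and carry adult beta globins (Hbb-bs, Hbb-bt) with adult alpha globins (Hba-a1, Hba-a2). Adult alpha globins are not exclusive to definitive cells. The blood held in a lung at this stage is thus a mixture of primitive and definitive cells. Erythroid precursors use the transcription factors GATA1, TAL1 and KLF1 to switch on globins, heme enzymes and a membrane skeleton of spectrin, ankyrin and band 3. Factors and receptors are lost as the cell matures, while globin messenger RNA stays.

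The sequence just before the transcription start is shown for 6 of the 7 globins and for the membrane genes that passed the test, because these carry the main contrasts below. Each line gives 150 bases ending 1 base before the start given by RefSeq (GRCm38.p6, the assembly also called mm10), 5′ to 3′ on the gene's strand. Capitals mark matches to GATA sites (TGATAA or AGATAA, either strand), CCAAT (either strand), CACCC (either strand) and TATA-type boxes (TATAA or ATAAAA, gene strand). Matches may overlap one another.
Hbb-y (chr7:103853208-103853357, minus strand): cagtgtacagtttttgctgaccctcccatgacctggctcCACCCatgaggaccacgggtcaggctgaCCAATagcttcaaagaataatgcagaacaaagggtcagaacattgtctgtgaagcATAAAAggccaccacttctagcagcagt
Hbb-bs (chr7:103827929-103828078, minus strand): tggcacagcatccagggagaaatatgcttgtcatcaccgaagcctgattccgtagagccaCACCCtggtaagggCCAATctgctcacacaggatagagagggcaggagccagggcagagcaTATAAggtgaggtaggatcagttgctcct
Hbb-bt (chr7:103813924-103814073, minus strand): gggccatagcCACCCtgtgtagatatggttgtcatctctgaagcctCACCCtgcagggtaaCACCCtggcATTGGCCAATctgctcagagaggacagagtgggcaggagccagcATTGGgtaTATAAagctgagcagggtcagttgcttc
Hba-x (chr11:32276450-32276599, plus strand): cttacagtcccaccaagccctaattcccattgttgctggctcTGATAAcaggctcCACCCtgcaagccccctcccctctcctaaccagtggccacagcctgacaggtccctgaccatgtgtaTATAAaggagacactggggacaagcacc
Hba-a1 (chr11:32283522-32283671, plus strand): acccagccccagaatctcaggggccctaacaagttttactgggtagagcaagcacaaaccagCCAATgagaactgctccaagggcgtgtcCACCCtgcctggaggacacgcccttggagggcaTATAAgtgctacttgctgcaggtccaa
Hba-a2 (chr11:32296342-32296491, plus strand): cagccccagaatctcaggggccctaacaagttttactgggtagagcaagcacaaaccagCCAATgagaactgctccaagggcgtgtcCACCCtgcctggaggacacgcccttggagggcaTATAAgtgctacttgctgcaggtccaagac
Epb42 (chr2:121036878-121037027, minus strand): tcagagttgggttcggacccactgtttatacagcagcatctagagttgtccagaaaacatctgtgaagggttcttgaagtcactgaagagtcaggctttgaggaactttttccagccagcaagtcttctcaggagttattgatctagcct
Sptb (chr12:76710548-76710697, minus strand): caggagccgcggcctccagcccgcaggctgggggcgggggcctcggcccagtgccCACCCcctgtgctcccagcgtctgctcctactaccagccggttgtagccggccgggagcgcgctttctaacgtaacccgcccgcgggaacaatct
All 6 globin windows held a TATA-type box starting 27 to 30 bases before the start, and all held CACCC. The CCAAT letters were present in 5 of the 6, with Hba-x the exception. Hba-x alone among the 6 held a GATA site, 108 bases before its start. The Epb42 window held none of the searched letters, and the Sptb window held CACCC only. RefSeq gave windows for 27 of the 33 genes. Of these, 12 held a GATA site, 13 CCAAT, 21 CACCC and 8 a TATA-type box in at least 1 window. Over all 32851 windows of the same length the shares were 9.65%, 24.5%, 37.4% and 13.5%. The 27 genes had 33 windows, so counts by gene and shares by window are not on the same basis. The windows of Hba-a1 and Hba-a2 were 96.1% identical, those of Hbb-bs and Hbb-bt 72.4%, and those of Hbb-y and Hbb-bs 49.7%. A match is a description of letters and not a bound site.

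The libraries held 17756301 to 21333878 reads counted to genes. Yap1 itself stood at 5686 and 3467 normalized counts in the controls and at 3209 and 4483 in Yap CKO, so it does not check the labels. Control 1 differed from the rest in sex-linked RNA, with Xist at 42.6 against 42729 to 50045. The Y-linked gene Ddx3y stood at 1726 in control 1 against 5.77 to 16.37. Sex as read from these genes was therefore not balanced between the groups. Control 2 carried the most heart muscle RNA, with 15 marker genes summing to 55314 normalized counts against 1819 to 12527. Lung epithelial markers were present everywhere, at sums of 16226 to 18154 for 10 genes, of which 1 was called higher and 1 lower. These calls were 20% of the epithelial markers, against 2.33% of all genes tested. At an unadjusted p under 0.05 stood 6 of the 10, against 18.9% of all genes. Endothelial markers summed to 21755 to 24536 for 10 genes, with 0 of 10 called. For every gene a difference is Yap CKO minus control on the scale log2(normalized count + 1). It was tested with limma over 19472 genes with Benjamini-Hochberg adjustment, and a gene was called at an adjusted p under 0.05. In whole organs fewer red cells and less RNA per red cell cannot be told apart. Of the 33 genes 1 rose and 2 fell, or 9.09%, against 2.33% of all genes tested (1.19% higher and 1.15% lower). 27 of the 33 had a negative difference and their median was -0.41, against -0.005 over all genes. The median of the 33 was -0.144 without control 1, with 23 negative, and -0.798 without control 2. Over all genes it was then 0 and -0.014. Groups did not overlap for 14 genes with both Yap CKO libraries below both controls and for 1 above. Over all genes 25.6% lay below and 25.2% above in this way. At an unadjusted p under 0.05 stood 10 of the 33, against 18.9% of all genes. EdgeR called 1 of the 33 (2.07% of all genes) and DESeq2 called 6 (5.54% of all genes).

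**Figure D1:**
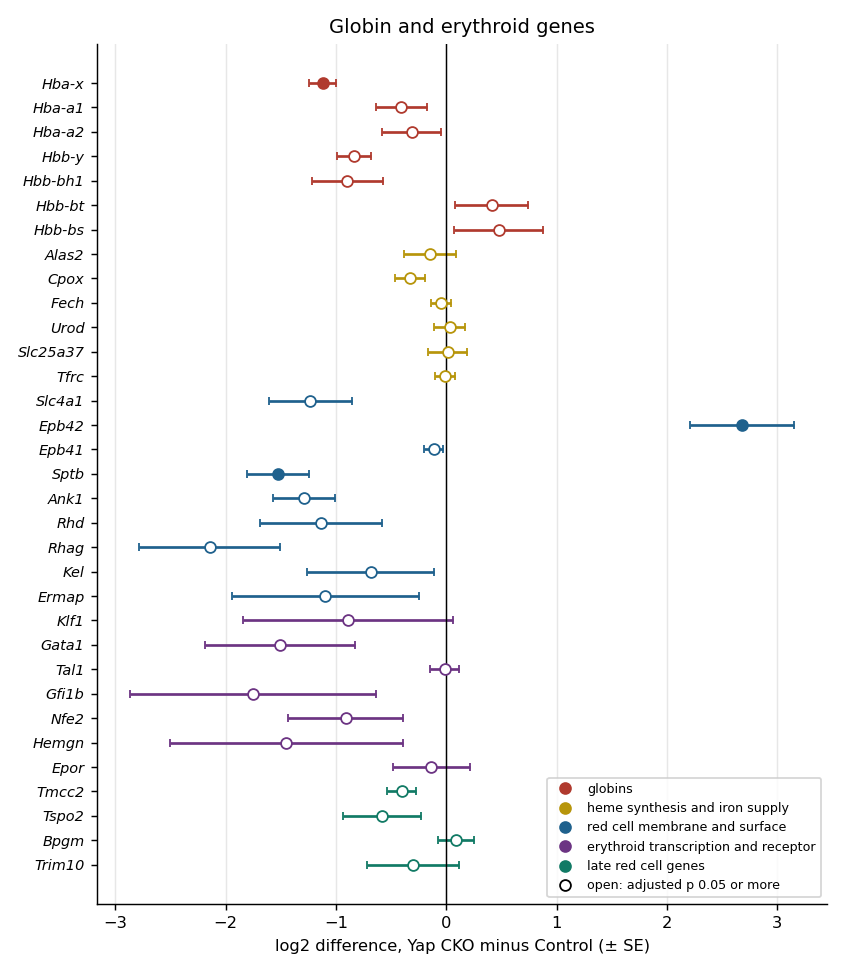
Log2 difference (Yap CKO minus Control, horizontal axis) of the 33 genes with its standard error from limma, coloured by role, filled where the adjusted p is under 0.05 (n = 2 libraries per group). Hba-x (-1.12) and Sptb (-1.52) are filled on the left and Epb42 (2.68) on the right, while the heme genes lie near 0.

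Embryonic globins lay lower in both knockout libraries than in both controls, as did 25.6% of all genes tested. Of the 3, 1 passed the test, Hba-x. Hba-x (ENSMUSG00000055609, chromosome 11, 32276400 to 32278116), the embryonic alpha-type chain, had 5920 normalized counts in control 1 and 6104 in control 2. Its values in the knockouts were 2483 (Yap CKO 1) and 3077 (Yap CKO 2). The controls agreed closely and both knockouts lay far below them. The means were 6012 ± 130 and 2780 ± 420 (SD, n = 2), and Hba-x fell by 1.12 on the log2 scale (SE 0.12, adjusted p = 0.0134 with limma, 0.0179 with edgeR and 5.02e-14 with DESeq2). The ratio of the group means, control over Yap CKO, was 2.16. The call ended without Yap CKO 1 (adjusted p = 0.192, limma) or Yap CKO 2 (0.078, limma), where 1 knockout library remained. None of the 3 calls among the 33 genes held without the filter on low values or without limma's intensity trend, where Hba-x had an adjusted p of 0.0581 and 0.108 (limma).

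Hbb-y (ENSMUSG00000052187, chromosome 7, 103851749 to 103853216), the main embryonic beta-type chain, stood at 43552 and 38749 in the controls and at 20340 and 26105 in Yap CKO. The groups did not overlap. The log2 difference was -0.83 (SE 0.15), just short of the threshold with limma (adjusted p = 0.0513) and edgeR (0.0637), while DESeq2 called it (4.07e-07), as did limma with a filter at a mean of 50 (0.0464). Hbb-bh1, the other embryonic beta-type chain and the least abundant globin of the 7, stood at 332 and 222 in the controls and at 108 and 197 in Yap CKO. Its difference of -0.90 (SE 0.32) did not pass (adjusted p = 0.21, limma), although both knockout values lay below both controls.

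No adult globin passed the test (0 of 4 by limma, edgeR and DESeq2, with 0 at an unadjusted p under 0.05). Hbb-bs (chromosome 7, 103826534 to 103828096) stood at 4169 and 10509 in the controls and at 7798 and 10829 in Yap CKO. Hbb-bt (chromosome 7, 103812524 to 103813996) stood at 3736 and 7592 in the controls and at 5849 and 8580 in Yap CKO. Control 1 was the lowest library for both, and control 2 lay among the knockouts. The differences were 0.47 (SE 0.40, adjusted p = 0.584, limma) and 0.41 (SE 0.33, adjusted p = 0.564, limma). They turned to -0.19 and -0.10 without control 1. Without control 2 they were 1.14 and 0.92. Hba-a1 stood at 34103 and 53569 in the controls and at 28595 and 36225 in Yap CKO, and Hba-a2 at 25689 and 44306, then 23607 and 31291. The groups overlapped for both alpha genes, with differences of -0.41 (adjusted p = 0.404, limma) and -0.31 (adjusted p = 0.588, limma). These values come from all 4 libraries. Where a control is left out, 1 control library is set against 2 knockouts, and the spread comes from the knockouts alone. Without control 1 the differences of Hba-a1 and Hba-a2 were -0.74 and -0.71. Without control 2 the differences were -0.08 and 0.08.

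The adult copies are hard to separate by reads. Of the 50-base windows of the longest coding transcript, 67.5% of Hba-a1 and 86.9% of Hba-a2 also occurred in the other gene. The shares were 65.8% for Hbb-bs and 58.3% for Hbb-bt, and 0 for Hba-x, Hbb-y and Hbb-bh1. The sources used here do not state how reads matching both copies were counted. The split within each adult pair, and the adult level against the embryonic one, are therefore uncertain.

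**Figure D2:**
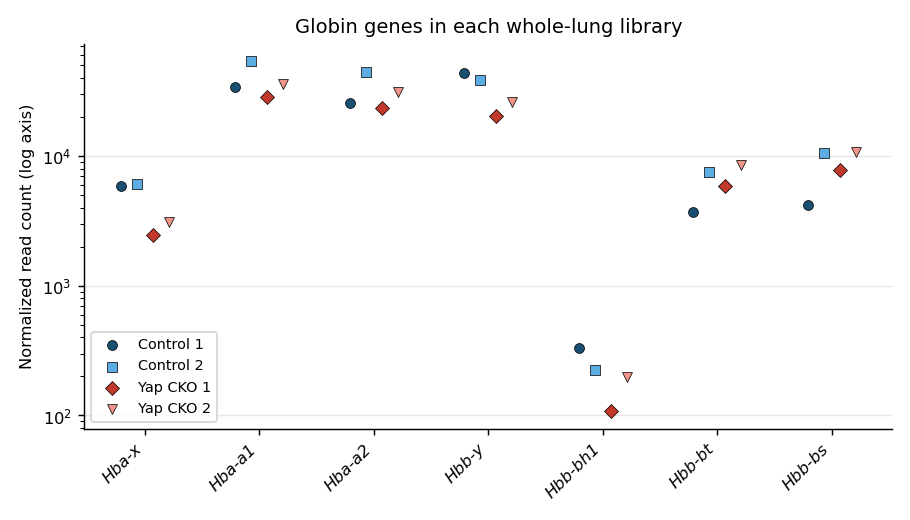
Normalized read counts (log axis) of the 7 globin genes, 1 point per library. Both Yap CKO libraries lie below both controls for Hba-x, Hbb-y and Hbb-bh1, while Control 1 is the lowest library for Hbb-bt (3736) and Hbb-bs (4169).

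The mixture of globins within each library does not depend on scaling between libraries. Among beta-type reads the embryonic genes Hbb-y and Hbb-bh1 made up 84.7% in control 1 (exact 95% binomial interval 84.4% to 85.04%) and 68.3% in control 2 (67.9% to 68.7%). They made up 59.97% in Yap CKO 1 (59.5% to 60.5%) and 57.5% in Yap CKO 2 (57.1% to 57.98%). Both knockouts lay below both controls, and control 2 lay closer to the knockouts than to control 1. The means were 76.5% ± 11.6 and 58.8% ± 1.72 (SD, n = 2), a difference of -17.8 percentage points. It was -9.53 without control 1 and -26.0 without control 2. Among alpha-type reads Hba-x made up 9.01% and 5.87% in the controls and 4.54% and 4.36% in Yap CKO, the same order of libraries. That difference was -2.99 percentage points, and -1.42 without control 1 or -4.56 without control 2. With reads divided by exon length the embryonic beta-type share was 86.6%, 71.6%, 63.6% and 61.2% in controls 1 and 2 and Yap CKO 1 and 2. The intervals describe counting error alone, because PCR duplicates of 1 molecule are counted as separate reads. An exact permutation test of 2 against 2 libraries cannot go below p = 0.333, so no test is given for the shares.

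The embryonic sum for beta-type genes went from 41428 ± 3474 in control to 23375 ± 4140 in Yap CKO. The adult beta-type sum was 13003 ± 7210 and 16528 ± 4074. All 7 globins together reached 117501 (control 1) and 161052 (control 2) normalized counts, against 88780 and 116304 in the knockouts. This was 0.57%, 0.776%, 0.449% and 0.585% of the library. By normalized counts the higher knockout, Yap CKO 2, lay just under control 1, the lower control. By share of the library Yap CKO 2 lay just above control 1, so the order depends on the scaling. As levels per kilobase of exon, Hbb-y was the highest single globin gene in control 1 (68803). In control 2 it stood at 61215, below Hba-a2 (66426) and Hba-a1 (65972). In Yap CKO 1 the 3 were close, at 32133, 35393 and 35215, and in Yap CKO 2 they stood at 41241, 46913 and 44613 in the same order. Alpha-type over beta-type levels per kilobase gave ratios of 1.08, 1.61, 1.44 and 1.40 in controls 1 and 2 and Yap CKO 1 and 2.

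**Figure D3:**
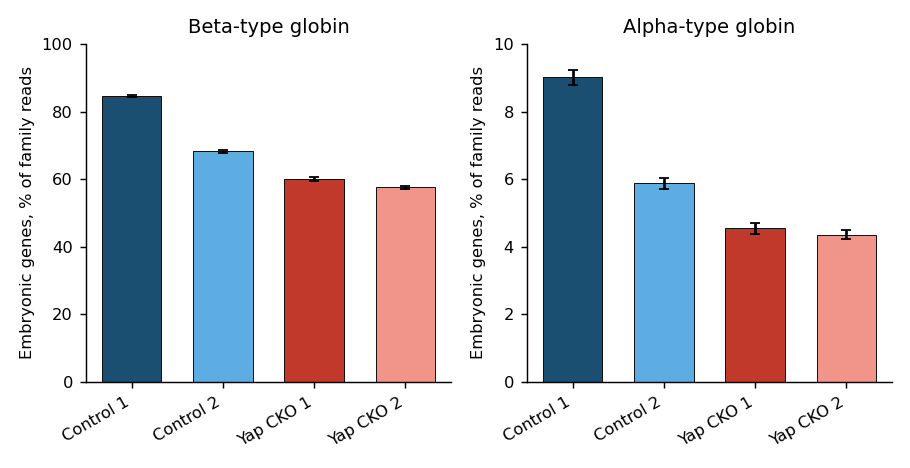
Share of embryonic genes among beta-type (left, 0 to 100%) and alpha-type (right, 0 to 10%) globin reads in each library, with exact 95% binomial intervals as error bars. In both families the order is Control 1, Control 2, Yap CKO 1, Yap CKO 2, from 84.7% to 57.5% and from 9.01% to 4.36%.

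Heme synthesis and iron supply genes held no call (0 of 6 by limma, edgeR and DESeq2, with 1 at an unadjusted p under 0.05), and their median difference was -0.03. Alas2, the erythroid enzyme that starts heme synthesis, stood at 411 and 641 in the controls and at 402 and 532 in Yap CKO. These values overlap, and they have the same low and high libraries as the adult alpha genes (control 1 and Yap CKO 1 low, control 2 and Yap CKO 2 high). Alas2 lies on the X chromosome, and 12.9% of its exon bases overlap Apex2 on the opposite strand, whose reads cannot be told apart without strand. Cpox, which makes protoporphyrinogen, was at 1114 and 877 against 763 and 808 (-0.33, adjusted p = 0.261, limma). The remaining 4 differed little: Urod, an earlier enzyme of the pathway, by 0.03, Fech, which inserts the iron, by -0.05, the mitochondrial iron importer gene Slc25a37 by 0.01, and the transferrin receptor gene Tfrc by -0.01. Every cell makes heme and takes up iron, and Tfrc (694.7 to 754.3 per kilobase) stood above the erythroid Alas2 (167 to 267 per kilobase) in each library. Enzymes of the same pathway outside the 33 held no call either. Of 13 further genes of heme synthesis and handling 0 were called by limma, edgeR or DESeq2, with 2 at an unadjusted p under 0.05. The smallest p among them were those of Hmox1, which breaks heme down (-0.46, adjusted p = 0.198, limma), and Ppox, the enzyme after Cpox (0.37, adjusted p = 0.202, limma). Of 10 further iron genes 0 were called by limma or edgeR and 1 by DESeq2, with 3 at an unadjusted p under 0.05. Closest to the threshold were the iron reductase gene Steap3 (-0.77, adjusted p = 0.135, limma) and the ferritin heavy chain gene Fth1 (-0.30, adjusted p = 0.14, limma).

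Of the 9 membrane and surface genes 1 rose, 1 fell and 7 did not pass, with 8 negative and a median difference of -1.14. Without control 1 the median of these 9 genes was -0.287, with 6 negative, and without control 2 it was -1.635. Sptb (ENSMUSG00000021061, chromosome 12, 76580488 to 76710547) encodes beta spectrin, the rod of the red cell skeleton. It stood at 385 and 358 in the controls and at 173 and 95.1 in Yap CKO. The groups were apart, and the knockouts differed from each other more than the controls did. The means were 371 ± 19.0 and 134 ± 55.1 (SD, n = 2), so Sptb fell by 1.52 on the log2 scale (SE 0.28, adjusted p = 0.0499 with limma), and the ratio of the group means, control over Yap CKO, was 2.77. This call is at the threshold. It ended with edgeR (0.0623), under equal totals (0.0572), TMM (0.0551) and median ratio scaling (0.0543), and without either knockout (0.134 and 0.203), while DESeq2 gave 0.00017. Sptb and Ank1 are also used by muscle and neurons.

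Ank1, which encodes the ankyrin that ties spectrin to band 3, stood at 248 and 239 in the controls and at 133 and 73.6 in Yap CKO. The same order of libraries appeared as for Sptb. The difference of -1.29 (SE 0.28) did not pass with limma (adjusted p = 0.0799) or edgeR (0.0926), while DESeq2 gave 0.00913. Slc4a1, which encodes band 3, the anion exchanger of the red cell, stood at 1280 and 522 in the controls and at 335.5 and 360 in Yap CKO. Control 1 was 2.45-fold above the next library. The difference of -1.23 did not pass (adjusted p = 0.153, limma). It was -0.58 without control 1 and -1.88 without control 2. Epb41, the protein 4.1 gene, expressed in many tissues, was level at 5391 and 5316 against 4942 and 4964 (-0.11, adjusted p = 0.539, limma).

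Of 15 tested red cell membrane genes outside the 33, 0 were called by limma or edgeR and 2 by DESeq2, with 5 at an unadjusted p under 0.05 and 12 negative. Dmtn, the dematin gene, had the smallest p, at 341 and 243 in the controls and at 145 and 140 in Yap CKO (-1.01, adjusted p = 0.0607, limma). Gypc, the glycophorin C gene, followed at 1029 and 1034 against 717 and 782 (-0.46, adjusted p = 0.0799, limma). Icam4 had 0 reads in every library.

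Epb42 went the other way. This gene (ENSMUSG00000023216, chromosome 2, 121017891 to 121037072, minus strand) encodes protein 4.2, which binds band 3 and ankyrin in the red cell membrane. Control 1 had 116 normalized counts and control 2 had 38.6, against 496 in the first knockout and 384 in the second. Every knockout value was more than 3 times every control value. The means were 77.4 ± 54.9 and 440.1 ± 79.2 (SD, n = 2). Epb42 rose by 2.68 on the log2 scale (SE 0.47, adjusted p = 0.0443 with limma and 0.0154 with DESeq2), and the ratio of the group means was 5.68. EdgeR gave 0.0542, and without Yap CKO 1 or 2 limma gave 0.419 and 0.298. The size depended on the control used, with a log2 difference of 3.47 without control 1 and 1.90 without control 2. Its membrane partners Slc4a1, Ank1 and Sptb lay below control in the same libraries. A nearby gene rose as well: Tmem62, which lies 2 genes away, stood at 74.6 and 95.9 in the controls and at 381 and 358 in Yap CKO (2.11, adjusted p = 0.00709, limma). Ccndbp1 between the 2 genes stood at 433 and 432 against 528 and 490 (0.23, adjusted p = 0.336, limma). On the other side the transglutaminase genes Tgm5 and Tgm7, relatives of Epb42, stayed at or under 4.81 in all libraries. None of the Epb42 exons overlapped those of another gene, and 0 of its 50-base windows occurred elsewhere. The neighbours were looked up after the values of Epb42 were seen.

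**Figure D4:**
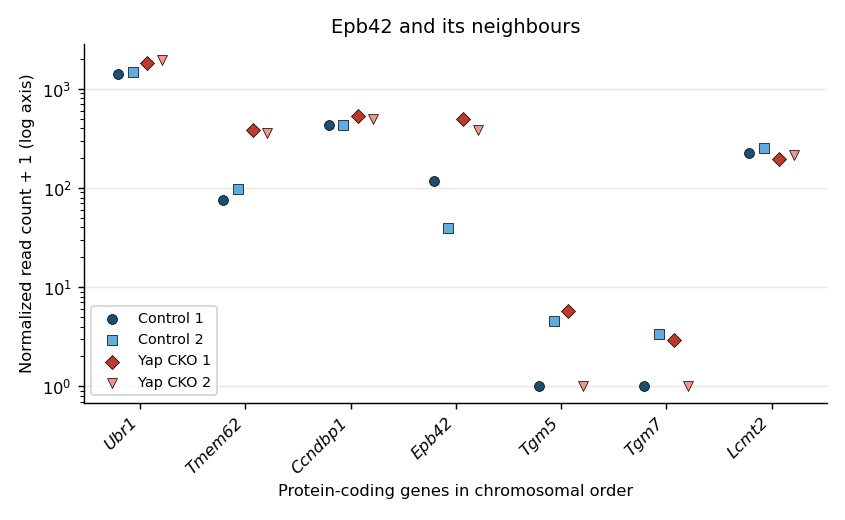
Normalized read counts plus 1 (log axis) of Epb42 and the 3 nearest protein-coding genes on each side, in chromosomal order with equal spacing, 1 point per library. Epb42 and Tmem62 are higher in both Yap CKO libraries (496 and 384, and 381 and 358), while Ccndbp1 between them lies at 431.5 to 528.

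Among blood group and other surface genes control 1 was the highest library. Rhag, the Rh-associated ammonium transporter gene, stood at 145 in control 1 and 35.1 in control 2, against 18.3 and 13.05 in the knockouts. Its difference of -2.14 did not pass with limma (adjusted p = 0.148), and DESeq2 gave 0.0124. Rhd, the Rh antigen gene, stood at 112 in control 1 and at 23.3 to 33.9 in the others. Kel, which encodes the Kell blood group protease, stood at 195 in control 1 and at 51.5 to 71.1 in the others. Ermap, an erythroblast membrane protein gene, stood at 289 in control 1 and at 36.3 to 52.9 in the others. For Kel and Ermap the other 3 libraries were mixed, with control 2 the lowest, and without control 1 their differences turned from -0.69 and -1.10 to 0.26 and 0.38.

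Erythroid transcription factors showed the same pattern. Gata1, the master regulator of the lineage and X-linked, stood at 138 in control 1 and 28.1 in control 2, against 22.1 and 20.5 in the knockouts. Klf1, the activator of adult beta globin, stood at 58.1, 5.85, 11.5 and 8.39 in the same order. Gfi1b, a repressor needed for red cell and platelet precursors, stood at 47.5, 3.51, 1.92 and 5.59. Control 1 was 4.90-fold, 5.04-fold and 8.49-fold above the next highest library for these genes, while control 2 was close to the knockouts. Hemgn, a nuclear protein gene downstream of GATA1, stood at 171 in control 1 and at 12.9 to 20.2 in the others. Nfe2, a globin locus activator, stood at 119 and at 29.8 to 43.8. Epor, the erythropoietin receptor gene, stood at 122 and at 59.6 to 77.9. Tal1, which endothelial cells also express, was level at 477 and 405 against 434 and 435. None of these 7 genes was called by limma, edgeR or DESeq2 (0 at an unadjusted p under 0.05), and all 7 had a negative difference, with a median of -0.91. The median was 0.10 without control 1 and -2.45 without control 2.

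Control 1 was at least 2-fold above each other library for 10 of the 33 genes, or 30.3%, against 0.56% of all genes tested, and it was the highest library for 24, against 29.4% of all genes. The 10 were Slc4a1, Rhd, Rhag, Kel, Ermap, Klf1, Gata1, Gfi1b, Nfe2 and Hemgn. The 2-fold rule was chosen after the values were seen. No globin and no heme or iron gene among the 33 met it, and control 1 held the lowest adult beta-type sum of the 4 libraries (7905 against 13648 to 19409) beside the highest embryonic beta-type share. Among the 67 tested companion genes control 1 was the highest library for 32. Platelet and megakaryocyte markers summed to 760 in control 1 and to 433 to 538 in the others for 10 genes, with 0 genes at 0. Liver cell markers, of interest because the fetal liver makes red cells, were lowest in control 1, at a sum of 29.1 for 11 genes with 6 of them at 0. The sums were 87.7 in control 2 (1 at 0), 1657 in Yap CKO 1 (0 at 0) and 904 in Yap CKO 2 (2 at 0). In the knockouts these sums were carried by 4 of the 11 genes, namely Afp (1157 and 639), Alb (275 and 144), Ttr (111 and 76.4) and Apoa1 (73.1 and 31.7), named after their values were seen. In the controls Afp stood at 17.4 and 43.3 and the other 3 at 0 to 8.19. These 4 were the only liver genes that passed the filter on low values. All 4 were called higher by limma, with a median difference of 4.79, and edgeR and DESeq2 called all 4 as well. The remaining 7 liver genes stood at 12.9 or less in every library, among them Ahsg, which was highest in control 2. Leukocyte and macrophage markers summed to 4682 and 5876 in the controls, against 4391 and 4379 in the knockouts, with 0 of 12 genes at 0. The part of sex, blood content and these cells in the differences was not tested.

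**Figure D5:**
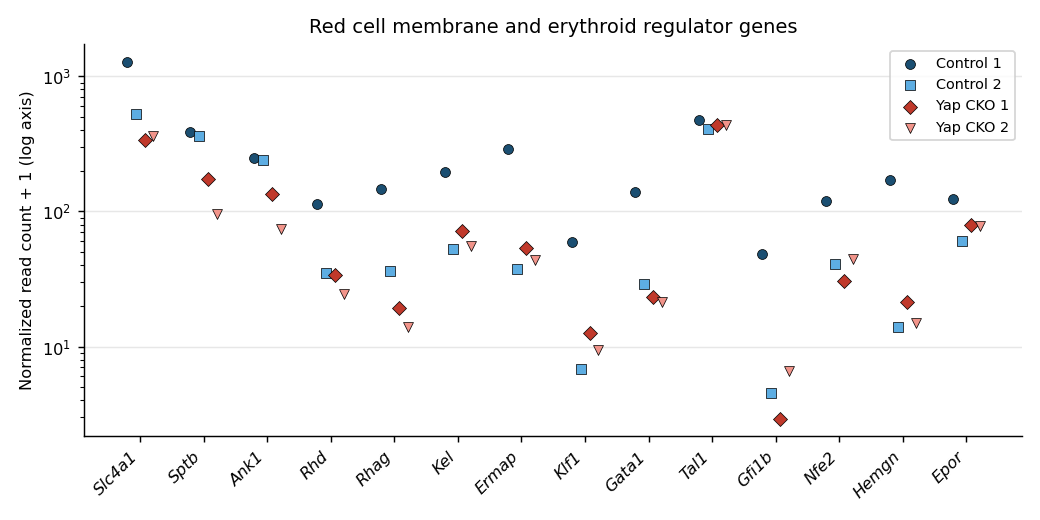
Normalized read counts plus 1 (log axis) of 14 membrane and regulator genes, 1 point per library. Control 1 stands above the other 3 libraries for Rhd, Rhag, Kel, Ermap, Klf1, Gata1, Gfi1b, Nfe2 and Hemgn, while Sptb and Ank1 separate both controls from both Yap CKO libraries and Tal1 is level.

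Among erythroid regulators outside the 33, 0 of 17 were called by limma or edgeR and 1 by DESeq2, with 5 at an unadjusted p under 0.05. The smallest p were those of Kit and Sox6. Kit, the stem cell factor receptor of early precursors and other cells, stood at 962 and 1309 in the controls and at 1893 and 1831 in Yap CKO (0.73, adjusted p = 0.0699, limma). Sox6, which with Bcl11a silences embryonic globin in definitive cells, stood at 555 and 627 against 866 and 786 (0.48, adjusted p = 0.0993, limma). Bcl11a stood at 949 and 779 against 720.1 and 712 (-0.26, adjusted p = 0.323, limma) and is named after its values were seen. These genes are also expressed outside blood, and whole-lung values do not assign them to a cell type.

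The late red cell genes held no call (0 of 4 by limma, edgeR and DESeq2, with 1 at an unadjusted p under 0.05). Tmcc2 stood at 829.5 and 695 in the controls and at 542 and 606 in Yap CKO (-0.40, adjusted p = 0.174, limma). Tspo2, a cholesterol-binding protein gene of erythroblasts, stood at 32.0 and 23.4 against 19.2 and 16.8. Trim10, needed for terminal erythroid maturation, stood at 86.2 and 38.6 against 39.4 and 55.0. Bpgm, which makes the 2,3-bisphosphoglycerate that lowers the oxygen affinity of hemoglobin, stood at 674.5 and 931 against 796 and 891 (0.09). Both knockouts lay below both controls for Tmcc2 and Tspo2, as for 25.6% of all genes tested, and groups overlapped for Trim10 and Bpgm. Of 12 tested red cell enzyme and maturation genes outside the 33, 1 fell: Gpx1, a glutathione peroxidase abundant in red cells and present in many others, stood at 2095 and 2024 in the controls and at 1450 and 1402 in Yap CKO (-0.53, SE 0.09, adjusted p = 0.0398 with limma and 0.0397 with edgeR). The call did not hold without Yap CKO 1 (0.37, limma) or Yap CKO 2 (0.353, limma). No companion gene was called lower when library totals were made equal, when replicate number was a block, or when the filter or the trend was dropped, so the Gpx1 call was lost there too. Over all 73 companion genes 67 were tested and 1.49% were called, against the 2.33% of all genes.

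Leaving out a control changed the counts more than any scaling did. The spread then comes from the 2 knockout libraries alone, and the single control is assumed to vary as they do. Over genes the 2 controls differed from each other more than the 2 knockouts did. The chi-square per degree of freedom was 22.1 for the controls and 6.64 for the knockouts. These fits therefore understate the spread of a control, and their calls come too easily. Without control 1, 7 of the 33 genes were called lower and 1 higher, among 12.6% of all genes. The 7 were Hba-x, Hba-a1, Hba-a2, Hbb-y, Slc4a1, Sptb and Ank1. Without control 2, 17 were called lower and 3 higher, again among 12.6% of all genes, and the 3 were Epb42, Hbb-bs and Hbb-bt. These fits share both knockout libraries, so genes called in both are not independent results. Without either knockout library 0 of the 33 were called, where limma called 2 and 7 of all genes.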

How the data were processed

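RNA from 4 whole-lung samples was sequenced, 2 Control and 2 Yap CKO. The deposited values are a normalized signal per gene. Judged from the values themselves, they are read counts divided by 1 size factor for each library. The submitters' processing notes name mm10, Bowtie2 2.2.9, featureCounts 1.5.0-p1, DESeq 1.16.0 and edgeR 3.18.1, without role or order. The annotation release, strand setting and handling of shared reads are not given in the sources used here. Every deposited value was a whole multiple of its library's step within 0.001 reads, so whole reads were recovered, and 3 reads equal 2.80 to 3.51 normalized counts. Symbols came from GENCODE for 52403 of 52636 identifiers.

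Genes with a mean of at least 10 were tested as log2(normalized count + 1) with limma 3.58.1 (intensity trend, 2 residual degrees of freedom, R 4.3.3) and Benjamini-Hochberg adjustment. edgeR 4.0.16 and DESeq2 1.42.0 were run on the recovered reads, and the limma fit, but not these 2 tools, was tested on simulated data. A pseudocount understates the change of low genes. The 33 genes, the 73 companion genes and the marker lists were chosen with earlier results of these data known. All 33 are named, with the called genes of each companion list or, where none was called, the 2 with the smallest p. Alternatives were other scalings, filters, a pseudocount of 5, no trend, a replicate block and leaving out each library. Companion genes meeting the 2-fold rule for control 1 are not reported here.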

Additional observations from a re-analysis of the deposited data

How the results depend on the processing

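With 2 libraries a group, counts of calls moved with most choices. Of the 33 genes 1 was called higher and 2 lower. Higher calls were 0 without a filter, without the intensity trend and with edgeR, and 0 to 3 when a library was left out. Lower calls were 1 under equal totals (with or without the 33 genes in the total), TMM, median ratio scaling and edgeR, 0 without a filter or trend, 3 with a filter at 50, 5 with DESeq2, and 0 to 17 when a library was left out. Companion genes had 0 higher and 1 lower call. Their higher calls were 1 with DESeq2 and 0 to 3 with a library left out, and their lower calls were 0 under both equal totals, without a filter or trend and with the replicate block, 4 with DESeq2 and 0 to 14 with a library left out. Over all genes 454 calls became 56 without a filter, 6 without the trend, 1037 with DESeq2 and 2 to 2459 with a library left out. With the replicate number as a block 342 genes were called, with 1 higher and 2 lower of the 33. Same-numbered libraries did not deviate together (correlation -0.36 over genes). With so few libraries this cannot settle whether the numbers pair the samples, and the labels do not say. The crossed pairing, chosen after seeing the data, called 972 genes, with 1 and 7 of the 33 and 1 and 2 companion genes higher and lower. Differences between the groups in the embryonic share, in percentage points, ranged from -25.98 to -9.53 for beta-type and from -4.56 to -1.42 for alpha-type reads with a library left out, and in the globin sum from -58510 to -14959. Of 525 values of single genes under an alternative 451 kept their direction and side of the threshold, 31 passed it, 18 lost it and 25 changed sign. With a library left out the difference ranged across 0 for 15 genes: Hba-a2 (-0.70 to 0.081), Hbb-bt (-0.10 to 0.92), Hbb-bs (-0.19 to 1.14), Alas2 (-0.47 to 0.17), Urod (-0.15 to 0.21), Slc25a37 (-0.26 to 0.28), Tfrc (-0.073 to 0.046), Kel (-1.64 to 0.26), Ermap (-2.58 to 0.38), Klf1 (-2.45 to 0.66), Tal1 (-0.13 to 0.10), Hemgn (-3.27 to 0.36), Epor (-0.65 to 0.38), Bpgm (-0.14 to 0.32) and Trim10 (-0.88 to 0.26). Under equal totals, with and without the 33 genes, it changed for Fech (0.015 and 0.013), Tfrc (0.049 and 0.047) and Tal1 (0.046 and 0.044), where the median of all genes was 0.057 instead of -0.005. Slc25a37 changed with edgeR (-0.01) and DESeq2 (-0.009). The cause of these changes was not tested. Genes near the 3-read floor, such as Gfi1b, are limited by depth.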
